A study of Homo sapiens with 12 samples.

Results

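The aldo-keto reductases described here were AKR1A1, AKR1B1, AKR1B10, AKR1C1, AKR1C2, AKR1C3, AKR1C4, AKR1D1, AKR7A2 and AKR7A3, that is 10 of the 27249 Ensembl genes in the tables, each chosen by its symbol. RNA was sequenced from Huh7 and HepG2 cells in a parental and a sorafenib-resistant form, established lines of liver tumour cells that the labels call hepatocellular carcinoma cells, with 3 samples in each of 4 groups. Parental cells received no drug, and all samples were labelled WT in genotype. Resistant cells of either line were selected with sorafenib, a multikinase inhibitor, from a first dose of 10 μmol that was raised over 8 months, with the medium changed after each exposure; the labels do not say whether a resistant line is 1 clone. Neither the labels nor the study's methods say that the 3 samples of a group came from separate cultures, so the p-values measure the spread between these samples, which may be technical.

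Aldo-keto reductases use NADPH to reduce aldehydes and ketones to alcohols. In liver they clear reactive aldehydes from lipid peroxidation and xenobiotics, pass glucose into the polyol pathway, and convert steroids and bile acid precursors. Several members, most of all AKR1B10 and the AKR1C genes, are known as targets of the stress-responsive transcription factor NRF2.

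AKR1C1, AKR1C2, AKR1C3 and AKR1C4 lie side by side on chromosome 10 (GRCh38; AKR1C1 chr10:4963253-4983283, AKR1C2 chr10:4987400-5018031, AKR1C3 chr10:5035354-5107686 and AKR1C4 chr10:5195462-5218949, with AKR1C2 on the minus strand and the others on the plus strand). In GENCODE 29 transcripts their coding sequences had 969 bases each. AKR1C1 and AKR1C2 differed at 19 of these bases (98.0% identity), whereas AKR1C3 and AKR1C4 were 91.4% and 88.5% identical to AKR1C1. The 60 coding bases in which AKR1C1 and AKR1C2 differ most are shown because they are where a read can best be told apart; capitals mark bases that differ from AKR1C1, and the stretch is coding bases 103 to 162, inside 1 exon of each gene.
AKR1C1: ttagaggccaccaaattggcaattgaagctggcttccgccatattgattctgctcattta
AKR1C2: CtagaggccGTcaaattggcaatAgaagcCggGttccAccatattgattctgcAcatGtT
AKR1C3: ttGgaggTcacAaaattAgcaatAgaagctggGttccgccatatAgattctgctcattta
AKR1C4: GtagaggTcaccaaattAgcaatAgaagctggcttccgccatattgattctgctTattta
These stretches lie at chr10:4965932-4965991, chr10:5001604-5001663, chr10:5096428-5096487 and chr10:5200199-5200258. Short reads from coding stretches that are the same in another member cannot be separated by their letters. Of the coding windows of 50 bases, 53.7% in AKR1C1 and 57.1% in AKR1C2 stand letter for letter in a transcript of another member, against 23.0% in AKR1C3, 12.2% in AKR1C4 and none in AKR1A1, AKR1B1, AKR1B10 or AKR1D1. Longer windows were shared less. At 100 bases the share was 20.7% in AKR1C1 and 26.4% in AKR1C2. At 150 bases it was 4.63% in AKR1C1, 7.32% in AKR1C2, 2.68% in AKR1C3 and 0 in AKR1C4. Only coding bases were compared in this way. How the authors' counting treated reads that match more than 1 gene is not given in the sources used here, so the split of reads within the AKR1C genes is uncertain, and their sum is given beside the single genes.

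The upstream sequences of AKR1C1 and AKR1C2 are also near copies. In the RefSeq promoter table (GRCh38.p14), the start of AKR1C1 lies 162 bases and that of AKR1C2 14174 bases inside the GENCODE genes given above, so these are starts of some transcripts only. The 250 bases before these starts matched at 245 of 246 aligned positions, while AKR1C1 matched AKR1C4 at 155 of 247. The part before the first GENCODE exon is shown for AKR1C1 (chr10:4963165-4963252, plus strand), in lower case since no base of it differed over the 84 bases that could be set beside AKR1C2 (chr10:5004024-5004107, minus strand).
AKR1C1 upstream: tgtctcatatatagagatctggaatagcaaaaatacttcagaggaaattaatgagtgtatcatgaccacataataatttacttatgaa
The core letters of the antioxidant response element, TGACNNNGC on either strand, were found in 13.3% of all 35116 promoter windows and in 2 of the 12 windows of 9 members (16.7%), both of AKR7A2. AKR1B10 was not examined, and windows of 300 bases around the start do not cover distant elements.

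Levels are given as FPKM, reads scaled by exon length and sequencing depth, and the reads behind them were recovered as whole numbers. The samples held between 12290128 and 19285959 reads. AKR1C1 led in every group, and the AKR1C genes together took 0.205% ± 0.0048 of all reads in resistant Huh7 cells, 0.0442% ± 0.0026 in parental Huh7 cells, 0.344% ± 0.0207 in resistant and 0.442% ± 0.0303 in parental HepG2 samples (SD, n = 3 each). AKR7A3, which reduces aflatoxin dialdehyde, stayed at or below 0.456 FPKM, with 5 to 14 reads per sample, and did not pass the filter of 1 FPKM in at least 3 samples in any comparison. AKR1C3 was likewise between 0.522 and 0.927 FPKM in all 6 Huh7 samples and was not tested within Huh7. All 14 hepatocyte markers were at or above 1 FPKM in every sample. Of 14 markers of fibroblast, endothelial, immune and bile duct cells, only PECAM1 reached 1 FPKM in all 3 samples of each Huh7 group, and their summed level was 4.53 to 6.15 FPKM in Huh7 and 21.3 to 32.4 FPKM in HepG2, where ACTA2, LYZ and PECAM1 reached 1 FPKM in both groups. The immune marker PTPRC reached 1 FPKM in all 3 samples of parental HepG2 but not in all 3 of resistant HepG2. CD68 was at 0 in parental Huh7 and LUM at 0 in resistant HepG2. The part of these genes in the results was not tested.

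**Figure D1:**
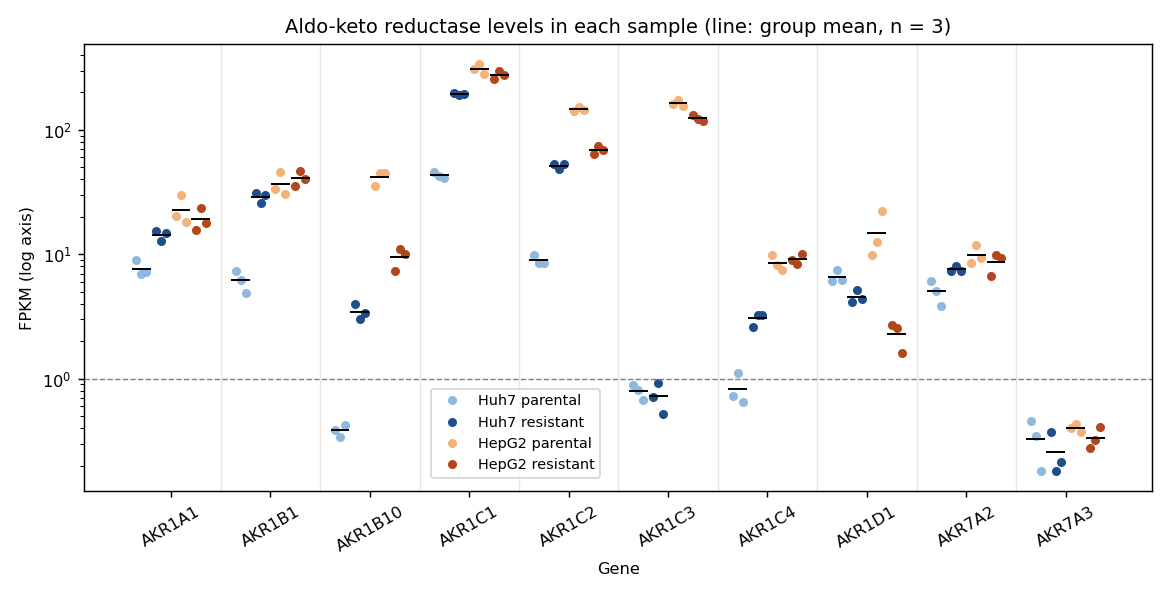
FPKM of the 10 aldo-keto reductases in each of the 12 samples on a log axis, with points for samples, short lines for group means (n = 3) and a dashed line at the filter of 1 FPKM. AKR1C3 lies under 1 FPKM in all 6 Huh7 samples and between 118 and 174 FPKM in all 6 HepG2 samples.

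In Huh7, the question was which aldo-keto reductases differed between resistant and parental cells. Resistant Huh7 cells held 4.50-fold more AKR1C1, 5.79-fold more AKR1C2, 4.71-fold more AKR1B1, 8.97-fold more AKR1B10 and 3.68-fold more AKR1C4 as ratios of mean FPKM. These 5 of the 8 members tested were called higher, at an adjusted p under 0.05 and a log2 fold change beyond 1 (limma on log2(FPKM + 1), Benjamini-Hochberg over 12554 genes), where 8.59% of all genes tested were called higher and 14.0% lower. No member was called lower. At an unadjusted p under 0.05, 7 members were higher and 1 lower. The share of all genes at an unadjusted p under 0.05 is not given, here or for the lists below, so such counts have no background. Limma-voom on the recovered reads also called 5 members higher and 0 lower, where it called 1630 higher and 2663 lower over all genes tested. The median log2 fold change of the 8 tested members was 1.41, against -0.04 over all genes tested. In all 8 the resistant and parental samples did not overlap, as was also so for 74.5% of the genes tested. AKR1B10 and AKR1C4 passed the filter on low values only through the resistant group and so had to differ. Fold changes on the log2(FPKM + 1) scale understate those of low genes.

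AKR1C1 and AKR1C2 encode steroid reductases that inactivate progesterone and dihydrotestosterone. In resistant Huh7 cells AKR1C1 stood at 199.6, 192 and 193 FPKM, and in parental cells at 46.03, 42.43 and 41.43 FPKM. Every resistant sample was thus far above every parental one (log2 fold change 2.15, SE 0.10, limma adjusted p = 4.50e-06), with 32214 to 33195 reads against 5867 to 7239. For AKR1C2, the resistant samples held 53.0, 48.8 and 53.2 FPKM and the parental samples 9.79, 8.50 and 8.48 FPKM. Again the groups were well apart (2.41, SE 0.10, limma adjusted p = 4.19e-06).

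AKR1C4, a liver enzyme of steroid and bile acid metabolism, was low in Huh7. Its FPKM was 2.62, 3.28 and 3.27 in resistant and 0.728, 1.12 and 0.647 in parental samples, from 95 to 121 and 20 to 36 reads. The groups did not overlap (1.15, SE 0.14, limma adjusted p = 0.000152), and the log2 fold change was 1.89 with limma-voom on reads and 1.79 with a pseudocount of 0.1. AKR1C3, which makes testosterone and prostaglandin F from their precursors, had 0.709, 0.927 and 0.522 FPKM in resistant and 0.898, 0.812 and 0.669 FPKM in parental Huh7 cells, with overlapping groups. AKR1C3 stayed at 45 to 81 reads in the same samples in which AKR1C1 had 5867 reads or more.

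Among the aldose reductase branch, AKR1B1 encodes aldose reductase, which turns glucose into sorbitol. It was at 31.0, 26.1 and 30.1 FPKM in resistant Huh7 samples and at 7.40, 6.26 and 4.87 FPKM in parental samples, with no overlap (2.08, SE 0.15, limma adjusted p = 2.06e-05). AKR1B10, which reduces retinaldehyde and other dietary and lipid aldehydes, had 3.96, 3.00 and 3.35 FPKM in resistant and 0.383, 0.340 and 0.426 FPKM in parental samples. Behind these values stood 131, 101 and 111 reads against 12, 10 and 12. The log2 fold change of AKR1B10 was 1.68 (SE 0.12, limma adjusted p = 1.92e-05), and 3.11 (SE 0.37) with limma-voom on the reads, where no constant of 1 FPKM is added.

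The remaining members moved less in Huh7. AKR1A1, the general aldehyde reductase, was at 15.5, 12.9 and 14.8 FPKM in resistant and 8.98, 6.92 and 7.14 FPKM in parental samples (0.83, SE 0.13, limma adjusted p = 0.000553, under the fold threshold). AKR7A2, which reduces succinic semialdehyde, had 7.31, 8.09 and 7.38 against 6.13, 5.10 and 3.86 FPKM (0.53, SE 0.15, limma adjusted p = 0.0119). AKR1D1, the steroid reductase of bile acid synthesis, went the other way, with 4.12, 5.20 and 4.404 against 6.05, 7.50 and 6.24 FPKM (-0.45, SE 0.12, limma adjusted p = 0.0115). None of these 3 passed both thresholds. Gene GC content moved with the difference between the Huh7 groups. The longest GENCODE transcripts of AKR7A2, AKR1A1 and AKR1D1 held 61.1%, 56.7% and 42.0% GC. Once the dependence on GC content had been removed from each library, the log2 fold changes of these genes were 0.0016, 0.31 and 0.012. AKR1C1 and AKR1C2, at 42.4% and 40.2% GC, were then at 2.57 and 3.03, and AKR1C4, at 44.3% GC, was at 1.40 (1.15 before). AKR1B1, at 53.5% GC, came down to 1.65 (2.08 before), and AKR1B10, at 47.5% GC, to 1.63 (1.68 before). The same 5 members were called higher.

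HepG2 showed another pattern. Resistant HepG2 cells held 6.48-fold less AKR1D1, 4.45-fold less AKR1B10 and 2.13-fold less AKR1C2 than parental cells, and no member was called higher. These were 3 of 9 members tested, where 3.29% of 11762 genes were called higher and 2.98% lower. At an unadjusted p under 0.05, 0 members were higher and 4 lower. Limma-voom called 0 members higher and 3 lower, where it called 644 higher and 511 lower over all genes tested. The median log2 fold change of the 9 members was -0.23, against 0.12 over all genes tested. The samples of both groups did not overlap in 4 of the 9, while this was so for 40.4% of all genes tested.

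AKR1D1 had 2.69, 2.56 and 1.62 FPKM in resistant and 9.92, 12.5 and 22.1 FPKM in parental HepG2 samples (-2.21, SE 0.28, limma adjusted p = 0.00176). Parental replicate 3 was the highest, and all parental samples were above all resistant samples. AKR1B10 was at 7.28, 10.98 and 10.06 FPKM in resistant and 35.6, 45.4 and 44.9 FPKM in parental samples, with no overlap (-2.05, SE 0.18, limma adjusted p = 0.000438). AKR1C2 had 63.7, 74.4 and 68.8 FPKM in resistant and 143, 152 and 146 FPKM in parental samples, again with no overlap (-1.08, SE 0.13, limma adjusted p = 0.00159). The log2 fold change of AKR1C2 lay close to the threshold and ranged from -1.23 to -1.03 over 15 alternatives, without losing its call in any of them.

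AKR1C3 was abundant in HepG2, at 132, 122 and 118 FPKM in resistant and 161, 174 and 156 FPKM in parental samples. The groups did not overlap, but the difference missed the threshold (-0.40, SE 0.13, limma adjusted p = 0.0645). AKR1C1 had 255, 298 and 274 FPKM in resistant and 309, 337 and 282 FPKM in parental samples, which overlapped (-0.17, SE 0.14, limma adjusted p = 0.439). AKR1B1 (35.6, 46.9 and 40.04 against 33.5, 46.1 and 30.6 FPKM), AKR1A1 (15.8, 23.5 and 17.9 against 20.3, 29.96 and 18.1 FPKM) and AKR7A2 (6.73, 9.89 and 9.36 against 8.51, 11.8 and 9.32 FPKM) overlapped as well. AKR1C4 had 8.98, 8.40 and 9.99 against 9.79, 8.16 and 7.54 FPKM, and its log2 fold change of 0.10 (SE 0.15, limma adjusted p = 0.669) turned to -0.040 with upper-quartile and -0.015 with median-ratio scaling. These scalings moved the median of all genes tested in HepG2 from 0.12 to -0.0027 and 0.020, so HepG2 changes near 0.1 have no fixed direction.

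**Figure D2:**
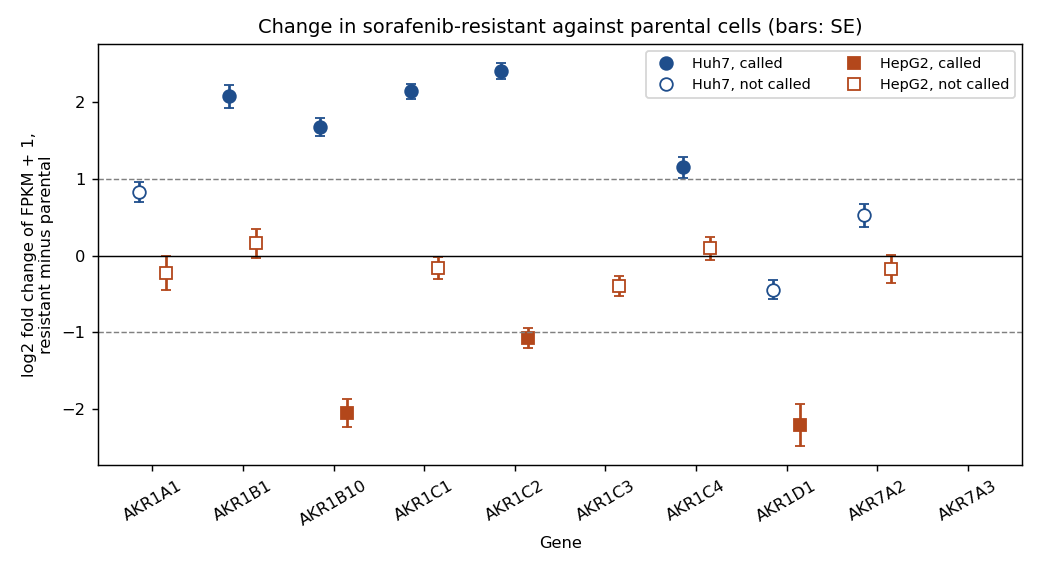
Log2 fold change of FPKM + 1, resistant minus parental, for each aldo-keto reductase tested in Huh7 (circles) and HepG2 (squares), with SE bars, filled symbols for called genes and dashed lines at the fold threshold of 1. The 5 filled Huh7 symbols lie above 1 and the 3 filled HepG2 symbols below -1.

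AKR1B10 and AKR1C2 were called in both lines, in opposite directions. The Huh7 call of AKR1B10 carries the limit given above, that it passed the filter only through the resistant group. The difference of the changes was tested as an interaction over all 12 samples (Huh7 change minus HepG2 change, limma, 13800 genes). It was called positive for 7 of 9 members tested and negative for 0, where 10.6% of all genes tested were called positive and 18.2% negative. AKR1B10 differed by 3.73 on the log2 scale (SE 0.21, adjusted p = 4.33e-07), AKR1C2 by 3.49 (SE 0.13, adjusted p = 5.65e-08), AKR1C1 by 2.31 (SE 0.15, adjusted p = 8.60e-07) and AKR1B1 by 1.92 (SE 0.25, adjusted p = 0.000102), all by limma. For AKR1D1 the interaction was 1.76 (SE 0.34, limma adjusted p = 0.00111), a smaller decrease in Huh7 than in HepG2. AKR1A1 and AKR1C4 were just past the threshold, with 1.06 (SE 0.27) and 1.06 (SE 0.19). The AKR1A1 call was lost without Huh7 parental replicate 2 (0.998), HepG2 resistant replicate 1 (0.94) or HepG2 parental replicate 2 (0.85) and after removal of the GC trend (0.71). The AKR1C4 call was lost without Huh7 parental replicate 3 (0.98) or HepG2 parental replicate 1 (0.96). AKR7A2 (0.70, limma adjusted p = 0.0286) and AKR1C3 (0.33, limma adjusted p = 0.0795) were not called. The Huh7 and HepG2 libraries carry no batch label, so line and any batch between lines cannot be told apart.

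The share of all reads taken by AKR1C1 to AKR1C4 together, given above, does not depend on how reads were split among these 4 genes if each read was counted once. It would change if reads that match more than 1 gene were dropped or counted for each gene, which is not known. The summed FPKM of the 4 genes also depends on the split, through the differing exon lengths. The summed FPKM was 256, 245 and 250.3 FPKM in resistant and 57.4, 52.9 and 51.2 FPKM in parental Huh7 samples, 4.65-fold higher in resistant cells. The log2 difference of 2.20 had p = 0.1 in a two-sided exact permutation test, the smallest that 3 against 3 samples allow, and an adjusted p of 4.65e-06 as a row of the limma fit. In HepG2 the sum was 459, 503 and 471 FPKM in resistant and 623, 671 and 591 FPKM in parental samples, 1.32-fold lower in resistant cells. All resistant samples lay below all parental samples (-0.39, exact permutation p = 0.1, limma adjusted p = 0.0782).

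The composition of the cluster differed between groups. AKR1C3 made up 24.2% to 28.7% of the summed FPKM in HepG2 and at most 1.56% in Huh7. The ratio of AKR1C1 to AKR1C2 FPKM was 4.86 ± 0.15 in parental and 3.78 ± 0.14 in resistant Huh7 cells, and 2.11 ± 0.15 in parental and 3.996 ± 0.014 in resistant HepG2 cells (SD, n = 3 each). It thus fell in one line and rose in the other, as a description with no test. The exon lengths behind FPKM, 8765 bases for AKR1C1 and 6461 for AKR1C2, are unions over all transcripts and exceed the single transcripts whose coding sequence was used here, of 6705 and 3756 bases, so that ratios between genes depend on the chosen length while ratios between groups do not.

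**Figure D3:**
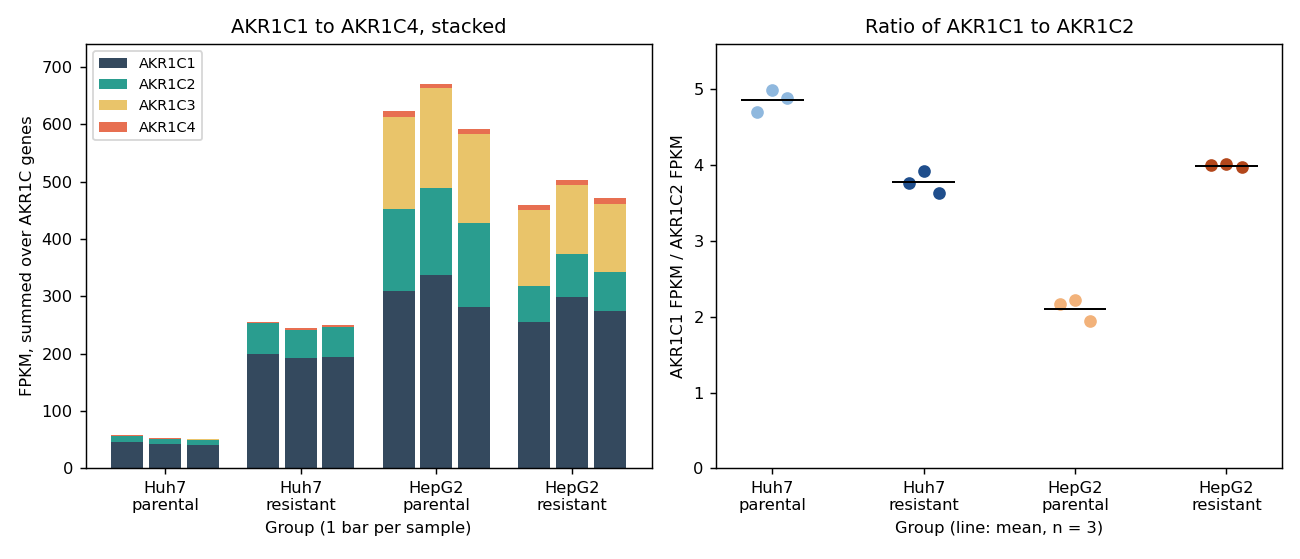
Left, FPKM of AKR1C1 to AKR1C4 stacked in 1 bar per sample; right, the ratio of AKR1C1 to AKR1C2 FPKM in each sample, with lines at the group means (n = 3). The summed bars rise from 51.2 to 57.4 FPKM in parental Huh7 to 245 to 256 FPKM in resistant Huh7, and the ratio is lowest in parental HepG2, at 1.94 to 2.22.

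The lines also differed before resistance. Of 9 members tested, 7 were called lower in parental Huh7 than in parental HepG2 cells and 0 higher, where 12.5% of 12796 genes were called lower and 19.4% higher. AKR1C3 was 206-fold lower (log2 -6.52, SE 0.12, limma adjusted p = 9.07e-08) and AKR1B10 109.6-fold lower (-4.95, SE 0.14, limma adjusted p = 1.78e-07). AKR1C2 was 16.5-fold, AKR1C4 10.2-fold, AKR1C1 7.15-fold, AKR1B1 5.95-fold and AKR1A1 2.96-fold lower. AKR1B10, AKR1C3 and AKR1C4 passed the filter only through HepG2 and so had to differ. AKR1D1 (-0.99, SE 0.26, limma adjusted p = 0.00966) and AKR7A2 (-0.86, SE 0.19, limma adjusted p = 0.00376) missed the fold threshold.

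The order of the members by level shows the same contrast. In parental HepG2 cells AKR1C1, AKR1C3 and AKR1C2 led, followed by AKR1B10 and AKR1B1, which overlapped each other, then AKR1A1, AKR1D1, AKR7A2 and AKR1C4, where each gene overlapped the next. In parental Huh7 cells AKR1C1 stood alone at 43.3 FPKM ± 2.42, and AKR1C2, AKR1A1, AKR1D1, AKR1B1 and AKR7A2 followed at 5.03 to 8.92 FPKM, each overlapping its neighbour. In resistant Huh7 cells the order was AKR1C1, AKR1C2, AKR1B1, AKR1A1, AKR7A2, AKR1D1, AKR1B10 and AKR1C4, and only AKR1B10 and AKR1C4 overlapped. In resistant HepG2 cells AKR1B10 came down to 9.44 FPKM ± 1.93, level with AKR1C4 at 9.12 FPKM ± 0.80 and AKR7A2 at 8.66 FPKM ± 1.69.

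Genes around the members in metabolism were read from lists. Of other superfamily members, AKR1B15, AKR1C8P (AKR1C8 is listed under this symbol only), AKR1E2 and AKR7L had at most 11 reads in any sample. Among the potassium channel subunits of the same fold, KCNAB1 was lower in resistant Huh7 cells, with 1.04 to 1.76 against 5.10 to 6.00 FPKM (-1.50, SE 0.14, limma adjusted p = 6.05e-05). KCNAB1 had 0.65 (limma adjusted p = 0.0673) and KCNAB2 0.37 (limma adjusted p = 0.138) as log2 fold changes in HepG2; KCNAB3 and, in Huh7, KCNAB2 were not tested.

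In the NRF2 pathway list, 7 of 23 genes tested passed as higher and 1 as lower in Huh7 with resistance, where 8.59% and 14.0% of all genes tested did, and the median log2 fold change was 0.85 against -0.04 over all genes. At an unadjusted p under 0.05, with no share of all genes given, 18 of the 23 were higher and 3 lower. Limma-voom called 8 higher and 1 lower, where it called 1630 higher and 2663 lower over all genes tested. The quinone reductase NQO1 had 685 to 730.3 FPKM against 47.2 to 58.1 FPKM (3.73, SE 0.12, limma adjusted p = 2.81e-06), and the glutathione peroxidase GPX2 had 223 to 290.3 FPKM against 19.7 to 26.8 FPKM (3.44, SE 0.15, limma adjusted p = 4.45e-06). TKT (2.61) and TALDO1 (1.89), of the pentose phosphate pathway that supplies NADPH, were also called higher. The single gene called lower was the cystine carrier SLC7A11 (-1.15), named after its values were seen. In HepG2, 0 of 22 genes tested were called higher and 4 lower, where 3.29% and 2.98% of all genes were, with a median of -0.27 against 0.12 over all genes. The 4 were SLC7A11 (-1.84), the exporter ABCC3 (-1.32), the glutamate-cysteine ligase subunit GCLM (-1.07) and the thioredoxin reductase TXNRD1 (-1.03). At an unadjusted p under 0.05, 3 of the 22 were higher and 9 lower. Limma-voom called 0 higher and 4 lower, where it called 644 higher and 511 lower over all genes tested.

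Of the short-chain carbonyl reductases and steroid dehydrogenases, a separate enzyme family with overlapping substrates, 2 of 16 tested were called higher and 1 lower in Huh7, where 8.59% and 14.0% of all genes tested were, with a median of 0.12 against -0.04. In HepG2, 0 of 17 were called higher and 2 lower, where 3.29% and 2.98% of all genes were, with a median of -0.028 against 0.12. At an unadjusted p under 0.05, 7 were higher and 2 lower in Huh7, and 5 higher and 4 lower in HepG2. Limma-voom called 3 higher and 1 lower in Huh7, where it called 1630 and 2663 over all genes tested. In HepG2 limma-voom called 1 higher and 2 lower, where it called 644 and 511 over all genes tested. HSD17B10 (1.20) and the retinal reductase DHRS3 (1.18) were higher and CBR4 (-1.78) was lower in resistant Huh7 cells, while HSD17B2 (-1.68) and DHRS3 (-1.12) were lower in resistant HepG2 cells. CBR4 had 0.721 to 1.07 against 4.80 to 6.95 FPKM in Huh7, and HSD17B2 had 0.185 to 0.223 against 2.41 to 3.21 FPKM in HepG2. Both passed the filter on low values only through the parental group, so their calls as lower were favoured in advance. DHRS3 had 25.4 to 31.1 against 9.68 to 13.3 FPKM in Huh7 and 21.4 to 26.0 against 44.3 to 69.4 FPKM in HepG2. Apart from the members AKR1D1 and AKR1C4, which the list leaves out, no gene of bile acid synthesis was called by limma in either line (8 tested in each; at an unadjusted p under 0.05, 4 higher and 3 lower in Huh7 and 2 higher and 0 lower in HepG2; limma-voom called ACOX2 higher in Huh7 and BAAT in HepG2, both named after their values were seen). In the polyol and fructose pathway, none of 4 genes tested was called in HepG2, with 2 higher and 1 lower at an unadjusted p under 0.05 and 0 by limma-voom. Of the 14 hepatocyte markers, 12 were not called in Huh7 (median 0.32), where APOA2 (1.55) and AHSG (1.11) were higher in resistant cells and 7 were higher and 2 lower at an unadjusted p under 0.05. In HepG2, 10 were not called (median 0.013), APOA2 (1.26) was higher and FGB (-1.98), FGG (-1.32) and FGA (-1.12) were lower in resistant cells, and 3 were higher and 4 lower at an unadjusted p under 0.05. The markers of other cell types had 1 gene tested in Huh7 and 4 in HepG2, with 0 called. At an unadjusted p under 0.05 the endothelial marker PECAM1, named after its values were seen, was the 1 higher gene in Huh7 and the 1 lower gene in HepG2, where limma-voom called it.

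For members whose group means spanned at least 2 on the log2 scale, the gene with the most similar profile was taken, measured as the root mean square difference of log2(FPKM + 1) over 12 samples, each centred, among 13800 genes. AKR1B1 lay nearest to FKBP10 (0.124), AKR1C1 to CCL15 (0.143), AKR1C4 to PPT1 (0.210), AKR1C2 to ITPR3 (0.249), AKR1C3 to CPLX2 (0.298), AKR1D1 to FOXO3 (0.339) and AKR1B10 to TXNIP (0.369). The samples form 4 groups, so the measure reflects mainly the 4 group means. CPLX2, like AKR1C3, was under 1 FPKM on average in both Huh7 groups (0.332 and 0.361 FPKM) and abundant in both HepG2 groups (64.7 in resistant and 93.7 FPKM in parental cells). TXNIP, like AKR1B10, was higher in resistant than in parental Huh7 cells (16.3 ± 2.19 against 2.55 ± 0.31 FPKM) and lower in resistant than in parental HepG2 cells (39.6 ± 2.96 against 164 ± 28.5 FPKM; SD, n = 3 each).

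**Figure D4:**
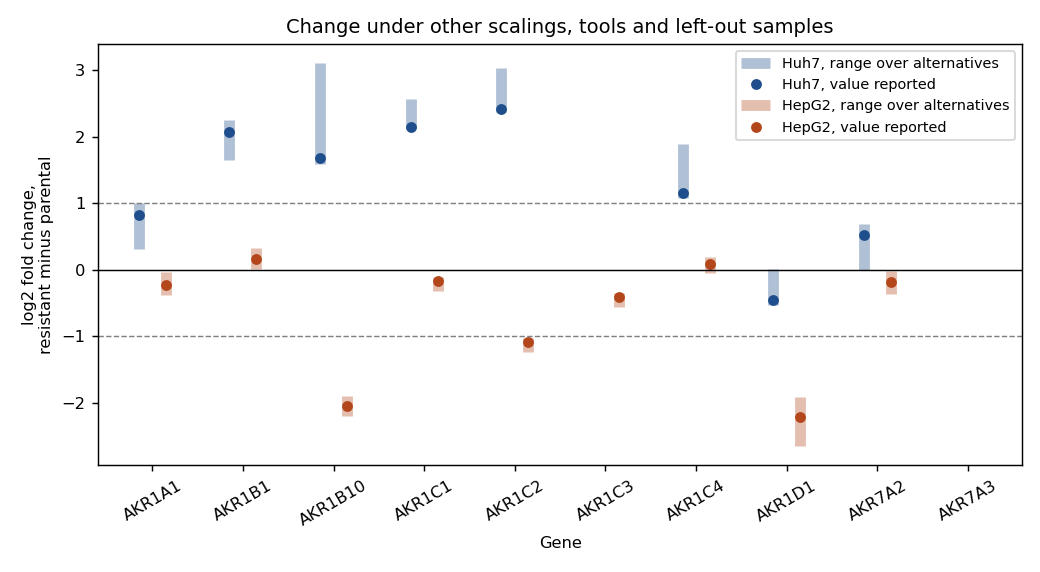
Log2 fold change, resistant minus parental, of each aldo-keto reductase tested, with points for the values reported and bars for the range over 15 or 16 alternatives (scalings, pseudocount, filter, tools, GC trend, replicate block and left-out samples), and dashed lines at 1 and -1. The bars of AKR1B10, AKR1C2 and AKR1D1 in HepG2 stay below -1, and those of the 5 members called in Huh7 stay above 1.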

How the data were processed

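Total RNA of 12 samples was sequenced. Per the labels, libraries were made with the NEBNext Ultra RNA kit, which does not mark strand, bcl2fastq was used and the genome build was GRCh38; the aligner and counter are not given in the sources used here. The labels name a column kit and the study's methods another reagent for RNA extraction. The authors deposited 1 table per sample with decimal values per gene, taken here as FPKM, a unit read from the values: multiplied by union exon lengths of GENCODE 29 they gave whole reads, within 0.05, for 96.39% of values up to 2000 reads, with the worth of 1 read in each sample set from 6896 single-exon genes. Only the 27249 Ensembl rows entered the fits; 71462 other rows did not.

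Groups came from the sample titles. Limma 3.58.1 (R 4.3.3, empirical Bayes with trend, two-sided) was run on log2(FPKM + 1) for genes that reached 1 FPKM in 3 or more of the samples compared; a call needed a Benjamini-Hochberg adjusted p under 0.05 as well as an absolute log2 fold change over 1. In simulated data with 200 changed genes, 93% were recovered in the comparison within Huh7 (12381 genes tested), and 7 other genes were called. The changed genes all had many reads and were moved up or down by the same factor, beyond the fold threshold. Members with few reads, such as AKR1B10 and AKR1C4 in Huh7, and changes near the threshold lie outside that setting. The summed AKR1C level was tested by exact permutation. Alternatives were a pseudocount of 0.1, no filter, 2 scalings, limma without trend, limma-voom on recovered reads, removal of a lowess GC trend (span 0.3), the replicate block, all 12 samples in one fit, and each sample left out. The members and the 7 gene lists were chosen with earlier results of these data known. Named genes were all members, the other superfamily genes, up to 4 called genes per list and line by size of change, and the nearest profile of each variable member. Sequences were taken from GENCODE 29 and RefSeq (GRCh38.p14) and aligned with Biopython 1.88. The Huh7 result of the polyol and fructose pathway list is not reported here.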

Additional observations from a re-analysis of the deposited data

Results flagged for a closer look

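The change in resistant against parental cells differed between Huh7 and HepG2, by the interaction term of limma, for 7 members. The difference, Huh7 change minus HepG2 change on the log2 scale, was 3.73 for AKR1B10, 3.49 for AKR1C2, 2.31 for AKR1C1, 1.92 for AKR1B1, 1.76 for AKR1D1, 1.06 for AKR1A1 and 1.06 for AKR1C4. The call of AKR1A1 was lost in 4 of 21 alternatives and that of AKR1C4 in 2 of 20.

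Rows without an Ensembl name entered no comparison. Of 10 that overlap a member, 2 were higher in all 3 resistant than in all 3 parental samples and 0 lower in Huh7, and 1 was higher and 2 were lower in HepG2. Among the named genes tested, the groups did not overlap for 74.5% in Huh7 and 40.4% in HepG2. Those genes had passed the filter on low values, which was not put on the 10 rows, so the shares are not like for like. The rows in AKR1D1 were at or near 0 FPKM in all samples. A plus-strand row of 1716 bases between exons of AKR1C1 (chr10:4973366-4975081, 0 bases shared with its exons) had a mean of 21.6 FPKM in resistant and 16.3 FPKM in parental Huh7 cells, a ratio of 1.32, where the AKR1C1 gene itself had a ratio of 4.50. In HepG2 its samples overlapped (81.0 ± 24.2 and 65.9 ± 14.8 FPKM). A row opposite to AKR1A1 (chr1:45550353-45550740) had 1.12 against 0.499 FPKM in Huh7, and one opposite to AKR7A2 (chr1:19298257-19305289) had 2.20 against 1.07 FPKM in HepG2. Both rows lower in resistant HepG2 cells lie opposite to AKR1C2, with 9.28 against 16.1 FPKM (chr10:4991558-4991982) and 14.0 against 31.5 FPKM (chr10:4993333-4997381). The library kit does not mark strand, so reads of these rows and of the members cannot be told apart by strand.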

How the results depend on the processing

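Over the alternatives, 562 of 581 values of single members kept their direction and their call, 6 lost a call, 10 gained one and 3 reversed. AKR1D1 in Huh7 turned to 0.012 with removal of the GC trend, and AKR1C4 in HepG2 to -0.040 with upper-quartile and -0.015 with median-ratio scaling. AKR7A2 in Huh7 fell to 0.0016 (limma adjusted p = 0.992) without the GC trend. In the parental lines AKR1D1 passed the fold threshold in 8 alternatives and AKR7A2 in 2. The counts of members called within a line did not change under any alternative run; the interaction count was 6 or 7 over its alternatives, and the count lower in parental Huh7 was 7 or 8 when 1 sample was left out and 9 with either scaling. The summed AKR1C difference in Huh7, 2.20, passed as a row of the limma fit, an alternative chosen after seeing the data, and ranged from 2.16 to 2.24 without 1 sample. Over all genes, limma-voom called 1630 higher and 2663 lower in Huh7 (main values 1079 and 1759) and 644 higher in HepG2 (387), the GC trend taken off gave 703 and 787 in Huh7 and 1349 negative interactions (2517), a pseudocount of 0.1 gave 612 higher in HepG2, and upper-quartile scaling gave 2311 positive interactions (1459). The higher and lower split also moved with upper-quartile scaling, to 1608 and 1272 in Huh7, 260 and 464 in HepG2 (387 and 350 as reported), 2311 and 1717 for the interaction and 1957 and 2061 between parental lines (2482 and 1599); the cause was not tested. With median-ratio scaling the split was 284 and 448 in HepG2, 1916 and 1975 for the interaction and 2068 and 1953 between parental lines; with the GC trend taken off it was 703 and 787 in Huh7, 279 and 444 in HepG2, 1538 and 1349 for the interaction and 1777 and 1831 between parental lines. Same-numbered samples deviated together with correlations of 0.08, 0.06 and -0.23 in Huh7 and 0.25, 0.44 and -0.01 in HepG2. Samples with unlike numbers ranged from -0.33 to 0.28 in Huh7 and from -0.42 to 0.21 in HepG2. With 3 pairs in a line, these correlations cannot settle in either line whether samples of the same number were paired. As a replicate block they gave 1081 and 1760 calls in Huh7 and 426 and 353 in HepG2, with 5 and 0 members called higher in Huh7 and HepG2 and 0 and 3 lower. With the block AKR1C3 in HepG2 had a limma adjusted p of 0.0450 (0.0645 as reported), still under the fold threshold. AKR7A3, with 5 to 14 reads per sample, and AKR1C3 in Huh7 did not pass the filter on low values and were not tested there.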
